A study of Mus musculus with 2 samples.

Results

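Cells remove the superoxide and hydrogen peroxide formed by respiration and by haemoglobin chemistry with a small set of abundant enzymes. The RNAs of 10 of them were followed here: the 6 peroxiredoxins Prdx1 to Prdx6, catalase (Cat), glutathione peroxidase 1 (Gpx1), copper-zinc superoxide dismutase (Sod1) and thioredoxin (Txn1). They were taken by symbol from the 43346 Ensembl mouse gene rows of each library, and all 10 were found. The samples were 2 libraries of 1 kind, both from livers of B6NCrl mouse embryos at embryonic day 11.5, with male and female embryos pooled. Per the labels they are biological replicates 1 and 2, and the label of replicate 1 names 109 embryos. Each library was prepared with a SmartSeq protocol from 1 cell-equivalent of total RNA extracted with the mirVana kit and supplemented with spike-in RNAs. The labels' assay title is that of a single-cell experiment, whereas the source is pooled tissue. No treatment, genotype or time was contrasted, so the values below are levels and differences between replicates, without a test.

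Superoxide dismutases turn superoxide into hydrogen peroxide, which is then reduced to water by catalase, by glutathione peroxidases at the expense of glutathione, or by peroxiredoxins. Peroxiredoxins do so through a reactive cysteine, and most of them are reduced again by thioredoxin, which thioredoxin reductase recharges with electrons from NADPH. Red blood cells rely on these enzymes, and the embryonic liver is a site where red blood cells form beside hepatoblasts, the precursors of hepatocytes.

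For Cat and Sod1 no catalytic codon was searched. In the peroxiredoxins, Gpx1 and Txn1 the chemistry is carried by a codon that can be read directly in the reference. The stretches below, shown because they hold the catalytic residue that defines each family, run 5′ to 3′ on the coding strand of mm10, with that codon in capitals. It encodes the peroxide-reacting cysteine in the peroxiredoxins, selenocysteine in Gpx1 and the leading cysteine of the active-site pair in Txn1.
Prdx1: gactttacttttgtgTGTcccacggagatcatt
Prdx2: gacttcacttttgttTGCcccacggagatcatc
Prdx3: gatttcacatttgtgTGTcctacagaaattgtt
Prdx4: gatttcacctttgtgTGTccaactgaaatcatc
Prdx5: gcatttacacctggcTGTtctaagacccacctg
Prdx6: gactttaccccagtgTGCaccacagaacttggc
Gpx1: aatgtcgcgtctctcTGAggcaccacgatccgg
Txn1: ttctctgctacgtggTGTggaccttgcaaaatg

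The Prdx1 stretch is centred on codon 52 (chr4:116691808-116691840, plus strand) and that of Prdx2 on codon 51 (chr8:84970468-84970500, plus strand). Codon 109 of Prdx3 (chr19:60870112-60871424, minus strand), codon 127 of Prdx4 (chrX:155332445-155334842, minus strand) and codon 99 of the transcript Prdx5-203 (chr19:6907665-6908005, minus strand) lie near exon ends, so these 3 spans include an intron that the printed letters leave out. The Prdx6 stretch is centred on codon 47 (chr1:161247353-161247385, minus strand) and the Txn1 stretch on codon 32 (chr4:57951815-57951847, minus strand). In Gpx1, codon 47 (chr9:108339436-108339468, plus strand) is an in-frame TGA, a stop codon that the selenoprotein machinery reads as selenocysteine. Among the peroxiredoxins, Prdx2 and Prdx4 had the most similar coding sequences, with 70.9% identical bases over the aligned length, followed by Prdx1 and Prdx2 with 69.9%. Prdx5 and Prdx6 stood apart, with 56.5% to 59.9% identity to any other member of the family.

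The libraries held total expected counts of 33289699 in replicate 1 and 32607453 in replicate 2. Spike-ins took 5.83% and 7.68% of TPM (a relative transcript level per unit of length, scaled to a fixed sum), and globins 9.80% and 8.89%. All 8 hepatoblast markers and all 10 erythroid markers were detected in both libraries. Macrophage markers summed to 288 and 106 TPM in replicates 1 and 2 (3 of 6 detected in both, Cd68 at 0 in both), endothelial markers to 62.8 and 41.4 TPM (3 of 5 in both) and heart muscle markers to 50.2 and 235 TPM (2 of 5 in both, Myl7 and Myl2 at 0 in replicate 1). In pooled tissue RNA sampled at 1 cell-equivalent, fewer cells of a type, less RNA per cell and the sampling of few molecules cannot be told apart.

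All 10 antioxidant enzymes reached a TPM of 1 in each library, the limit for calling a gene detected, against 27.3% of the 21474 protein-coding genes. Together they held 9455 TPM in replicate 1 and 8426.5 TPM in replicate 2, which is 0.945% and 0.843% of all TPM (0.894% ± 0.0727, SD, n = 2). Their median level was 631 TPM, against 38.8 TPM for protein-coding genes detected in both libraries. Ranked by mean TPM among Ensembl genes, the set ran from rank 23 (Gpx1) to rank 1781 (Cat), with 7 members within the top 500. By gene total, the 6 peroxiredoxins made up 46.9% and 42.7% of the set's TPM, and Gpx1 alone 39.0% and 36.1%. Coding transcripts held 63.0% and 72.9% of Prdx2 and 13.2% and 11.7% of Prdx6, but 99.9% of Gpx1 in each library. The peroxiredoxins' share would therefore be smaller on coding transcripts alone, and their lead over Gpx1 rests on gene totals.

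**Figure D1:**
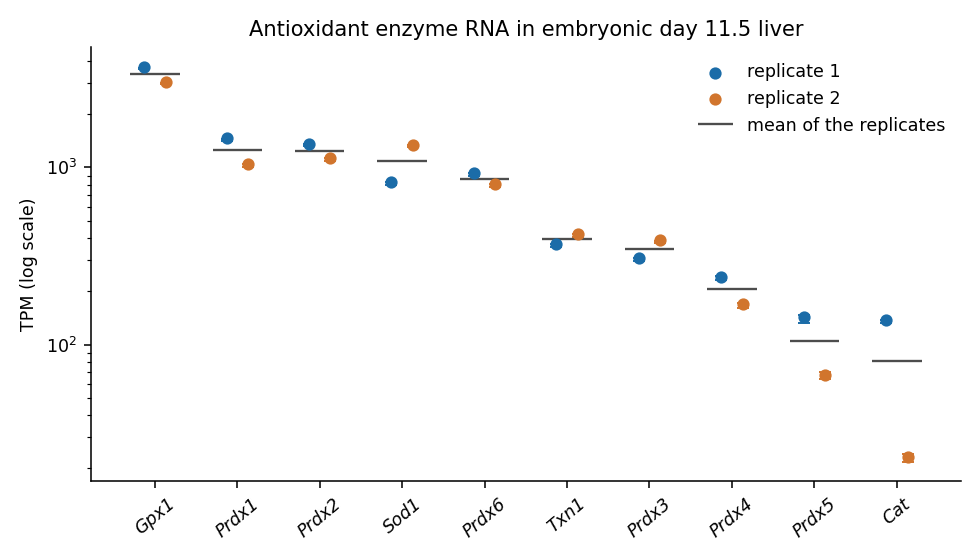
TPM (log scale) of each antioxidant enzyme in replicate 1 and replicate 2, ordered by mean, with the mean as a line. Thin bars, mostly hidden by the points, are the authors' credibility bounds of the posterior mean within each library. The points are TPM, so some lie outside their own bars. Gpx1 stands highest in both libraries at 3687 and 3039 TPM, and the widest gap between replicates is that of Cat, at 138 and 23.2 TPM.

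In the order of mean levels, Gpx1 came before Prdx1, Prdx2, Sod1, Prdx6, Txn1, Prdx3, Prdx4, Prdx5 and Cat. Neighbours whose replicate values did not overlap were Gpx1 above Prdx1, Prdx6 above Txn1, Prdx3 above Prdx4, and Prdx4 above Prdx5. Prdx1, Prdx2, Sod1 and Prdx6 could not be separated from their neighbours by replicate range, nor could Txn1 from Prdx3, or Prdx5 from Cat. Linked neighbour by neighbour, the enzymes formed 5 tiers, with Gpx1 alone at the top, the 4 genes from Prdx1 to Prdx6 in the next, Txn1 with Prdx3 in the middle, then Prdx4, and Prdx5 with Cat at the bottom. Within the second tier the ranges of Prdx1 and Prdx6 themselves did not overlap. The tiers use gene totals, and the coding transcripts of Prdx6 alone held only 122 TPM in replicate 1 and 93.8 TPM in replicate 2.

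Sod1, the cytosolic enzyme that produces hydrogen peroxide from superoxide, lies at chr16:90220754-90226329 (plus strand). It had 825 TPM in replicate 1 and 1342 TPM in replicate 2 (1083 ± 366, mean ± SD over the 2 replicates, as in the brackets that follow), from 13335 and 21561 reads. It was the member with the widest gap in favour of replicate 2. The mitochondrial dismutase Sod2 had 42.2 and 69.1 TPM, so that Sod1 stood 19.5 and 19.4 times above it, nearly the same ratio in both libraries although both genes were higher in replicate 2. Ccs, the chaperone that loads copper into Sod1, had 31.4 and 118 TPM, and the extracellular Sod3 had no read in either library.

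Gpx1, the cytosolic selenoenzyme that reduces hydrogen peroxide with glutathione, lies at chr9:108338903-108340343 (plus strand) and carries the TGA codon printed above. It had 3687 TPM in replicate 1 and 3039 TPM in replicate 2 (3363 ± 458), from 85255 and 70658 reads, the most of any member. Gpx4, the glutathione peroxidase that acts on lipid peroxides in membranes, was the only other member of its family above 100 TPM, with 1111 and 891 TPM. The ratio of Gpx1 to Gpx4 was 3.32 and 3.41, again close between libraries. Gpx3, the secreted form, had 23.2 and 73.3 TPM and Gpx8 had 16.1 and 57.0 TPM, both higher in replicate 2, and Gpx2, Gpx5 and Gpx6 had no read in either library. Genes for inserting selenocysteine were at much lower levels. Sephs2, which makes the selenium donor, had 77.8 and 33.3 TPM. Eefsec, the elongation factor that delivers the selenocysteine tRNA, had 47.9 and 28.1 TPM. Secisbp2 (57.3 and 0 TPM) and Sepsecs (14.5 and 0 TPM) were listed at 0 in replicate 2. Pstk went the other way, at 0.35 and 33.6 TPM.

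Cat, the haem enzyme of peroxisomes that splits hydrogen peroxide without a cofactor to recharge, lies at chr2:103453849-103485160 (minus strand). It had 138 TPM in replicate 1 and 23.2 TPM in replicate 2 (80.4 ± 80.9), from 10219 and 1712 reads. The SD was as large as the mean, and replicate 1 was 5.93-fold above replicate 2. The credibility bounds of the deposited posterior mean, 133 to 138 TPM in replicate 1 and 21.8 to 24.2 TPM in replicate 2, were narrower than this gap, but they cover the assignment and counting of reads within a library and not the sampling of molecules or PCR. Gpx1 exceeded Cat 26.8 times in replicate 1 and 131 times in replicate 2. All reads of the gene were assigned to the transcript Cat-201 in both libraries. Macrophage markers differed the same way (288 and 106 TPM in sum): Csf1r and C1qa were at 0 in replicate 2, Cd68 had no read in either library, and Adgre1 went the other way (2.83 and 7.92 TPM). Erythroid markers summed to 70394 and 64930.2 TPM. Their part in the difference was not tested.

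Prdx1 and Prdx2 are the abundant cytosolic peroxiredoxins, and Prdx2 is known as a major protein of red blood cells. Prdx1 (chr4:116685544-116700822, plus strand) had 1457 TPM in replicate 1 and 1044 TPM in replicate 2 (1250.5 ± 293). Prdx2 (chr8:84969587-84974834, plus strand) had 1360 TPM and 1131 TPM (1246 ± 162). By gene total they stood level: Prdx2 was at 0.933 of Prdx1 in replicate 1 and at 1.08 times Prdx1 in replicate 2, so their order changed. Counting only transcripts annotated as protein coding, Prdx1 had 1456 and 1043 TPM and Prdx2 had 857 and 825 TPM. On that count Prdx2 was the lower in both libraries. By gene total, Prdx1 and Prdx2 together exceeded Txn1, which reduces both, 7.60 times in replicate 1 and 5.16 times in replicate 2.

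Prdx3, the peroxiredoxin of mitochondria, lies at chr19:60864051-60874556 (minus strand) and had 307 TPM in replicate 1 and 387 TPM in replicate 2 (347 ± 56.2). Its mitochondrial reductant Txn2 had 434 and 332 TPM, so the ratio of Prdx3 to Txn2 was 0.709 in replicate 1 and 1.17 in replicate 2. The mitochondrial pair thus stood near parity, while the cytosolic Prdx1 alone (1457 and 1044 TPM) exceeded Txn1 (371 and 422 TPM) in both libraries. Prdx5, found partly in mitochondria, is not counted in that pair. Prdx4, which is secreted or held in the endoplasmic reticulum, lies at chrX:155323918-155340754 (minus strand) and had 242 and 169 TPM (205 ± 51.8). It stood below Prdx3 in each library.

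Prdx5, an atypical peroxiredoxin found in mitochondria, peroxisomes and the cytosol, lies at chr19:6906697-6910106 (minus strand). It had 142 TPM in replicate 1 and 67.2 TPM in replicate 2 (105 ± 53.0), from 3024 and 2242 reads. TPM gave a 2.12-fold difference between the libraries and the reads scaled for depth only 1.32-fold. The deposited effective length, which is weighted by the transcripts to which reads were assigned, was 719.5 bases in replicate 1 and 1135.5 bases in replicate 2. Prdx6, the 1-Cys member that is reduced through glutathione and also acts on phospholipids, lies at chr1:161240112-161251219 (minus strand). Its levels were 927 and 804 TPM (865 ± 86.9), which made it the third of the peroxiredoxins by gene total.

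Txn1, the small dithiol protein that recharges Prdx1 and Prdx2 among others, lies at chr4:57943373-57956411 (minus strand). It had 371 TPM in replicate 1 and 422 TPM in replicate 2 (396 ± 35.9), the smallest spread relative to its mean within the set. Txnrd1, the cytosolic thioredoxin reductase that serves it, had 54.0 and 37.4 TPM, and Txnrd2, the mitochondrial reductase, had 151 and 71.6 TPM. Txn1 exceeded Txnrd1 6.87 and 11.3 times, whereas Txn2 exceeded Txnrd2 2.87 and 4.63 times. Srxn1, which rescues over-oxidised peroxiredoxins, was at 16.1 TPM in replicate 1 and listed at 0 in replicate 2.

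The replicates were compared through the log2 ratio of TPM + 1, replicate 1 over replicate 2, after centring on the median gene of mean TPM 10 or more (centring removed a shift of -0.03). On this scale 2 members lay beyond 2-fold, Cat at 2.54 and Prdx5 at 1.10, both higher in replicate 1. Among all 6801 genes of mean TPM 10 or more, 51.1% lay beyond 2-fold and 25.8% did so with the higher level in replicate 1. Among the 1495 genes of mean TPM 100 or more these shares were 18.7% and 11.4%, and 1 of the 9 members at that level, Prdx5, was beyond 2-fold. Read against these shares, the count of members beyond 2-fold does not set the enzymes apart.

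The remaining members lay within 2-fold. Prdx4 was at 0.54, Prdx1 at 0.51, Gpx1 at 0.30, Prdx2 at 0.29 and Prdx6 at 0.23, all towards replicate 1. Towards replicate 2 lay Txn1 at -0.16, Prdx3 at -0.31 and Sod1 at -0.68, of which Txn1 and Prdx3 changed sign (0.23 and 0.09) when the spike-ins were taken as zero, while Sod1 kept its own (-0.28). That scaling moved all genes by 0.39, so the order among the members was kept and the zero line was not. With the gene median as zero, 7 members were higher in replicate 1 and 3 in replicate 2, and with the spike-ins as zero 9 and 1. The gene median by construction splits the genes of mean TPM 10 or more evenly. Of those beyond 2-fold, 50.6% lay towards replicate 1 with the gene median as zero and 62.5% with the spike-ins. The share of all genes on each side at the members' level was not computed, so these counts are not read as a lean of the set. The median ratio of the set was 0.30, beside 0.07 for genes of mean TPM 100 or more. The median size of the ratio regardless of sign was 0.41 in the set, 0.45 over genes of mean TPM 100 or more and 1.03 over genes of mean TPM 10 or more. Heart muscle markers were higher in replicate 2 in sum (50.2 and 235 TPM), as were Sod1, Prdx3 and Txn1, although the marker Actc1 went the other way (43.5 and 30.3 TPM), and the part of such cells in these differences was not tested.

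**Figure D2:**
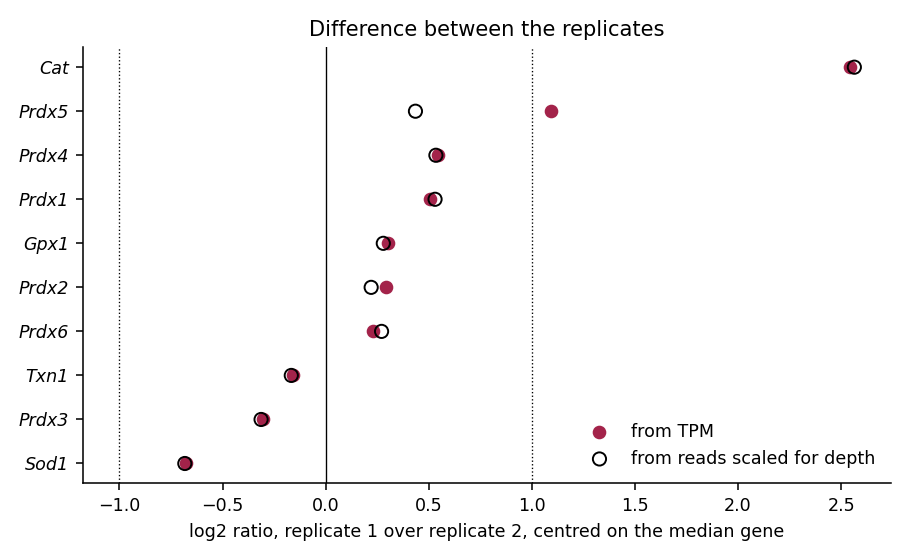
Centred log2 ratio of replicate 1 over replicate 2 for each antioxidant enzyme, from TPM (filled) and from reads scaled for depth (open), with 2-fold as dotted lines. The estimates lie close together except for Prdx5, at 1.10 from TPM and 0.44 from reads. Cat lies at 2.54 and 2.56.

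**Figure D3:**
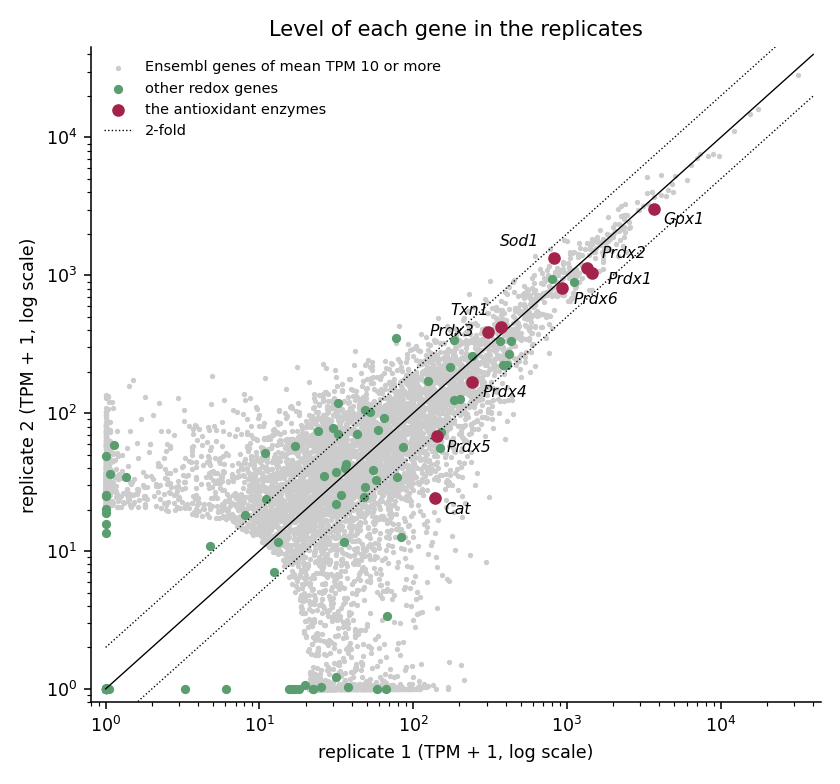
TPM + 1 in replicate 1 (horizontal) and replicate 2 (vertical), both on log scales, for Ensembl genes of mean TPM 10 or more (grey), the 86 other redox genes (green) and the antioxidant enzymes (red). The dotted lines mark 2-fold around equality before centring. The enzymes lie in the narrow upper part of the cloud apart from Cat and Prdx5, while many other redox genes lie on an axis, near 0 in 1 library.

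The transcript tables listed 39 transcripts of the 10 genes. Of these 29 had reads in both libraries and 7 had none in either. In 5 genes (Prdx3, Prdx4, Cat, Sod1 and Txn1) all reads were assigned to 1 transcript, so that gene and transcript levels coincide. The leading transcript was the same in both libraries in 6 of the 7 genes with several annotated transcripts. Of the 6 such genes at a mean TPM of 100 or more it was the same in 5, where 85.8% of the 1081 comparable genes kept theirs. The exception was Prdx5.

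For Prdx5 the percent of the gene's TPM given to each transcript moved by 66.0 percentage points. Prdx5-201 held 27.7% in replicate 1 and 93.7% in replicate 2, at 39.4 and 63.0 TPM. Prdx5-203 held 39.4% and 5.87%, and Prdx5-204 held 32.4% in replicate 1 and none in replicate 2. So the higher TPM of the gene in replicate 1 lay in Prdx5-203 and Prdx5-204, while Prdx5-201 was lower there. On the opposite strand, Prdx5-201 overlaps Trmt112, a partner of methyltransferases, and shares 409 bases with its exons, whereas Prdx5-203 and Prdx5-204 share none. Trmt112 had 141 and 241 TPM, and the summed level of the overlapping genes was 283 TPM in replicate 1 and 308 TPM in replicate 2, the opposite direction to Prdx5 itself. The sources used here do not say whether reads were counted by strand, and without strand the reads of the shared bases cannot be told apart.

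Gpx1 had the most stable split among genes with several expressed transcripts. Gpx1-201 held 54.3% and 56.6% and Gpx1-204 held 45.2% and 43.2% in replicates 1 and 2, a shift of 2.25 percentage points. In Prdx1 the leading Prdx1-201 held 67.2% and 43.8%, and Prdx1-204 held 32.6% and 30.4%. Prdx1-205, at 18.6% in replicate 2, had no read assigned in replicate 1. The Prdx1 transcripts above 5% are all annotated as coding, and coding transcripts held 99.9% of the gene's level in replicate 1 and 99.96% in replicate 2.

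In Prdx2 and Prdx6 a large part of the level was assigned to transcripts that are not annotated as protein coding. Coding transcripts held 63.0% of Prdx2 in replicate 1 and 72.9% in replicate 2, led by Prdx2-208 at 38.4% and 47.7%. The retained-intron transcript Prdx2-205 held 24.2% and 27.0%, and the retained-intron transcript Prdx2-207 held 10.3% in replicate 1 and none in replicate 2. Prdx2 also overlaps genes on the opposite strand, Rnaseh2a (280 and 165 TPM) and Junb (15.1 and 0 TPM), and its leading transcript shares 173 exon bases with Junb and none with Rnaseh2a. In Prdx6 the coding share was lower still: Prdx6-202 held 13.2% and 11.7%, or 122 and 93.8 TPM. The leading Prdx6-208, annotated for nonsense-mediated decay, held 50.1% and 53.4%, and the processed transcript Prdx6-204 held 28.6% and 33.02%. These shares are the authors' estimates from reads that fit several transcripts, and both libraries gave the same order of the 3.

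**Figure D4:**
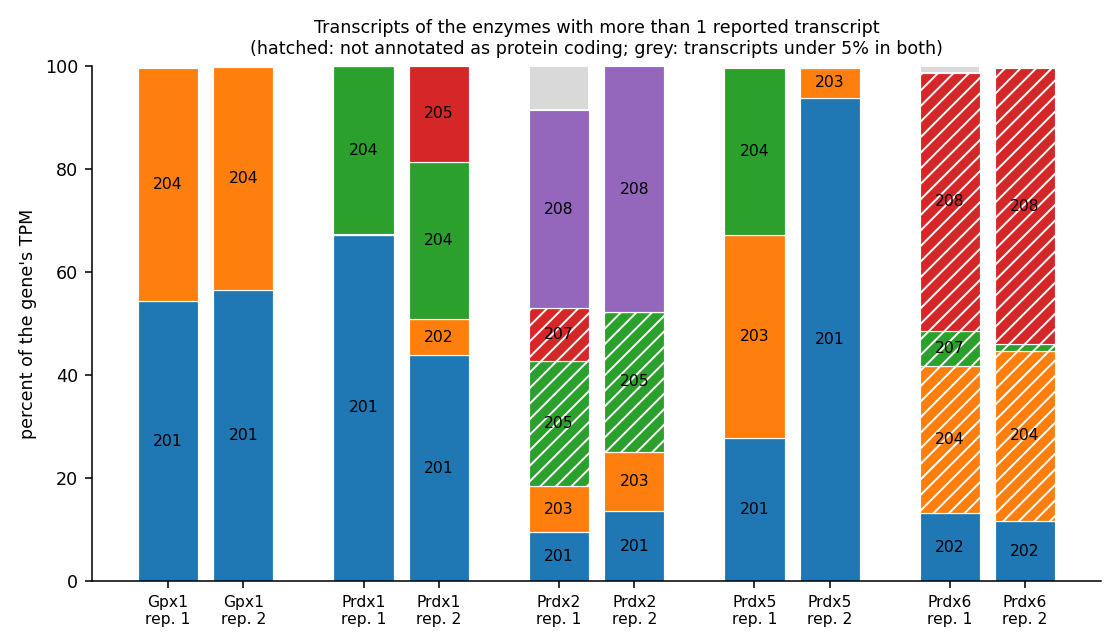
Percent of each gene's TPM by transcript in replicate 1 and replicate 2 for the 5 enzymes with several expressed transcripts, with numbers naming the transcript, hatching marking transcripts not annotated as protein coding, and grey marking transcripts under 5% in both. The Gpx1 bars match within 2.25 percentage points, while the Prdx5 bars change from 3 sizeable transcripts in replicate 1 to Prdx5-201 at 93.7% in replicate 2.

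Near copies were searched for each member. A near copy was an annotated transcript of another gene with at least 95% identity over at least 200 bases. All of those found were processed pseudogenes at low levels, apart from Trmt112, which meets this definition for Prdx5 through the overlap described above. Gm7204 and Gm21399 match Prdx1 and had 11.4 TPM in replicate 1 and 5.6 TPM in replicate 2 in sum. Tdpx-ps1, a match of Prdx2, had 5.06 and 3.22 TPM. Gm8566, a match of Sod1, had 7.31 and 13.9 TPM, and Txn-ps1, a match of Txn1, had 4.67 and 0.65 TPM. Each was higher in the library in which its parent gene was higher, except Txn-ps1. The levels of Prdx1, Prdx2, Sod1 and Txn1 are uncertain by these amounts, since the counting could split reads between parent and copy. Prdx3, Prdx4, Prdx6, Cat and Gpx1 had no near copy.

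The members were also compared for the core of the antioxidant response element, the short site bound by NRF2, a factor known to control several of these genes. The letters TGACNNNGC were searched on both strands of 300-base RefSeq promoter windows (GRCm38). They were present for 2 of the 9 members with a listed window, Prdx1 and Sod1, and in 12.4% of all 32851 windows. A match describes letters in a window and no binding was measured. Nfe2l2, which encodes NRF2, had 34.8 and 38.9 TPM, and its inhibitor Keap1 had 30.5 and 36.6 TPM. Of the other genes of that axis, Hmox1, which degrades haem, had 148 and 54.9 TPM, Mafg, a small partner of NRF2, had 66.1 and 2.39 TPM, its relative Mafk went the other way at 0.01 and 48.3 TPM, and Maff and Nqo1 were under 1 TPM in both libraries.

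The enzymes were set beside 86 other redox genes in 11 lists. Of these genes 47 (54.7%) were detected in both libraries, against 27.3% of protein-coding genes. A further 14 were detected in replicate 1 alone, 10 in replicate 2 alone and 15 in neither. Of the 58 with a mean TPM of 10 or more, 29 lay beyond 2-fold, 13 towards replicate 1 and 16 towards replicate 2, close to the 51.1% of all such genes. The widest were the glutaredoxin Glrx (65.2 and 0 TPM) and the glutathione synthetase Gss (0.14 and 57.4 TPM), at centred log2 ratios of 6.07 and -5.65. Of the 16 at a mean TPM of 100 or more, 3 lay beyond 2-fold. The enzymes followed here were all present in both libraries, but they also lay higher, with a median of 631 TPM. Only 16 of the 86 other genes reached a mean of 100 TPM, so the contrast in detection cannot be separated from level.

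In the thioredoxin system, 5 of 12 genes passed this limit in each replicate, led by Txn2, Txndc17 (173 and 215 TPM) and Txnl1 (125 and 169 TPM), and Txnrd3 had no read. In the glutathione system, 5 of 10 were detected in both, led by the glutaredoxins Glrx3 (241 and 258 TPM), Glrx2 (29.1 and 77.6 TPM) and Glrx5 (47.1 and 23.8 TPM), with Slc7a11, the cystine importer, and Ggt1 under 1 TPM in both. Glutathione transferases, which conjugate glutathione to electrophiles, were the most widely detected list by number, with 9 of 13 in both libraries and Gstp1 at 796 and 936 TPM, Mgst3 at 405 and 224 TPM and Gstm1 at 386 and 224 TPM. Gsta1 and Mgst1 had no read. Only Gstp1 and Gpx4 among the 86 genes approached the levels of the second tier of the enzymes.

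NADPH feeds both the thioredoxin and the glutathione route. Of its 6 genes 5 were detected in both libraries, with the mitochondrial Idh2 at 366 and 330 TPM, G6pdx, the entry enzyme of the pentose phosphate pathway, at 47.9 and 104 TPM, and Idh1 at 58.4 and 74.6 TPM. Peroxisome assembly, on which the location of catalase depends, had 6 of 8 genes in both libraries, led by Pex19 (63.4 and 91.1 TPM), Pex14 (82.0 and 11.7 TPM) and Pex16 (56.6 and 31.7 TPM). All 8 had a mean TPM of 10 or more, and 3 lay beyond 2-fold towards replicate 1 and 2 towards replicate 2. Among all genes at that level 51.1% lay beyond 2-fold, 25.8% towards replicate 1. Counts from 8 genes do not set the list apart from these shares.

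Of the remaining lists, the methionine sulfoxide reductases with Park7 had 2 of 5 genes in both libraries, led by Park7, a redox-sensitive chaperone, at 419 and 266 TPM. Msrb2 (0.06 and 34.9 TPM) and Msra (21.3 and 0 TPM) each passed the detection limit in 1 library alone, and Msrb3 had no read. The selenoprotein list had 3 of 6 in both, led by the selenium carrier Selenop at 76.9 and 348 TPM. Among superoxide-producing oxidases 2 of 8 were detected in both, namely Cyba (182 and 123 TPM), a subunit shared by several oxidases, and Rac2 (35.7 and 41.8 TPM), a small GTPase of blood cells. Ncf4, Nox1 and Nox4 were under 1 TPM in both libraries. In sum the 8 oxidase genes held 226 and 183 TPM, well below the 825 and 1342 TPM of Sod1 alone.

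**Figure D5:**
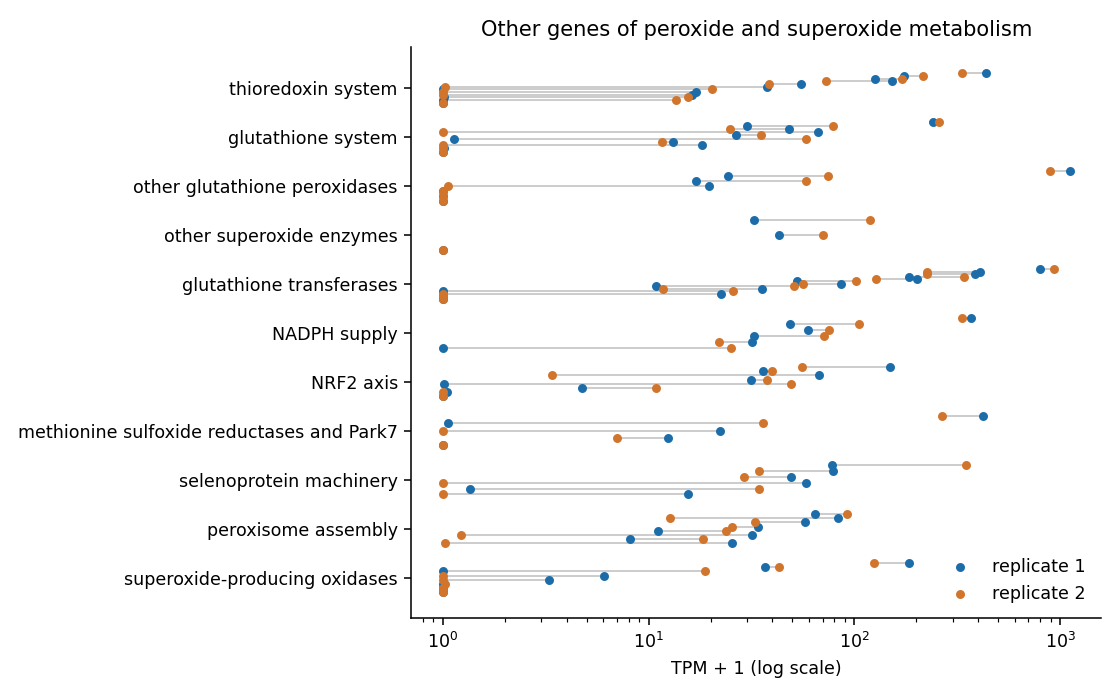
TPM + 1 (log scale) of the 86 other redox genes in replicate 1 (blue) and replicate 2 (orange), each gene as a pair joined by a line, grouped by list. Gpx4, Gstp1, Txn2 and Idh2 stand at the right with short lines, and genes detected in 1 library alone span from the left edge.

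With 2 libraries of 1 kind, no gene can be ranked by likeness of its pattern to these enzymes, and none is named here.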

How the data were processed

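Gene and transcript tables of each library were used. Per the file headers, these hold expected counts (estimated reads, some of them fractional), TPM and FPKM made by the authors, the percent of a gene's abundance given to each transcript, and posterior means with credibility bounds, treated here as a signal that the authors deposited with no stated level. The assembly is mm10 with release M4 of the GENCODE annotation, per the labels and the notes deposited with the tables. The aligner, the quantification program, their versions and any use of strand are not stated in the labels or headers.

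Of 69691 rows per gene table, 43346 carry Ensembl gene identifiers, 97 are spike-ins and 26248 are numeric. Spike-ins and numeric rows stayed in TPM totals and out of gene comparisons. Symbols and coordinates came from GENCODE M21 on the same assembly, which matched 42462 of the rows. Ratios used a pseudocount of 1, which understates differences of low genes, and a 2-fold rule of size. A gene without reads is limited by counting to 3 reads (CPM 0.0901 for replicate 1, CPM 0.0920 for replicate 2), and this covers counting error only, since PCR copies are not independent molecules. Near copies were searched with BLAST 2.17.0 on annotated transcripts, and tables were handled with Python 3.11.15, numpy 2.4.6 and pandas 2.3.3. The ratio calculation was tested on simulated data with counting noise only. That simulation does not model the sampling of molecules or PCR in these libraries. Catalytic codons were found by motif in GENCODE coding sequences: proline, 3 residues, threonine or serine, 2 residues, cysteine in peroxiredoxins, and the in-frame stop codon in Gpx1.

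The text names all 10 members, the 3 highest genes of each redox list, up to 3 under TPM 1 in both libraries, and the widest in each direction. Not every gene under this rule is reported here. Txnrd1, Txnrd2, Srxn1, Secisbp2, Sepsecs, Pstk, Keap1, Mafk, overlapping genes and single marker genes fall outside that rule and were named with their values known. The members and lists were chosen with earlier results of these data known.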

Additional observations from a re-analysis of the deposited data

How the results depend on the processing

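No test was possible with 1 group, and no paired analysis was possible because there is 1 group only. Of 35 values recomputed for the set with both libraries kept, 29 stayed and 6 moved. To stay meant within the replicate SD, within 0.1 for log2 ratios or within 1.5 times for counts. Some of the 29 could not move. The share from FPKM scaled to a fixed sum restates TPM, as do the ratios of Prdx2 to Prdx1 from FPKM and from counts per base of effective length. Centring on genes of mean TPM above 0 gave the same values as no centring. The count of 29 is therefore no measure of stability. The set's share of all TPM (0.894%) was 0.723% as a share of expected counts and 1.06% with the total over Ensembl genes without globins. Its median log2 ratio (0.30) was 0.69 with centring on the spike-ins, which changed the split of genes beyond 2-fold to 2245 towards replicate 1 and 1350 towards replicate 2, against 1758 and 1716 with the gene median as zero. Members beyond 2-fold numbered 1 rather than 2 with a pseudocount of 10 and with depth-scaled expected counts, Cat in both cases. By gene total, the peroxiredoxins' share of the set's TPM (44.8%) was 52.7% of its expected counts, which are not divided by length. Of 15 values for the level of each member with both libraries kept, 14 stayed and 1 moved, Prdx5, which reached 296 TPM with Trmt112 added. Without replicate 1 or without replicate 2, the share of TPM was 0.843% to 0.945%, the ratio of Prdx2 to Prdx1 0.933 to 1.08 and the peroxiredoxins' share 42.7% to 46.9%. With 2 libraries such values cannot leave the replicate SD and show no stability. The mean of Cat, 80.4 TPM, was 23.2 TPM without replicate 1 and 138 TPM without replicate 2, and that of Prdx5, 105 TPM, was 67.2 TPM without replicate 1. With 2 libraries, each made from 1 cell-equivalent, differences between replicates have no further check, and depth does not limit these enzymes, the lowest of which had 1712 reads.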
